A study of Mus musculus with 8 samples.

Results

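The genes described are the cytochrome P450 genes of the mouse outside the Cyp1 family, measured in Hepa-1 cells, a mouse hepatoma line also called Hepa-1c1c7, after exposure to hexavalent chromium, Cr(VI). They were chosen by symbol alone: Cyp, a family number, a single subfamily letter and a gene number. Pseudogenes and Cyp1a1, Cyp1a2 and Cyp1b1 were left out, as were symbols of another form such as Cyp51, Cyp4a12a and Cyp3a41a. Of 23403 genes in the count table, 89 met this rule. RNA-seq compared 2 libraries of cells given 25 µM CrK2O4, the labels' name for the Cr(VI) salt, during 90 minutes (treated) with 2 libraries of cells passaged without chromium (control), and the labels do not name the regimen to which these controls belong. FAIRE-seq, which recovers DNA that is free of nucleosomes, covered 1 library for each of 4 conditions: the same 25 µM exposure, its control, 20 passages in 0.5 µM Cr(VI), and its control. All libraries came from a single tumour line, and nothing in the labels says that replicates were separate cultures, so p-values measure only the spread between these libraries.

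P450 enzymes are heme proteins that use molecular oxygen to hydroxylate small lipophilic compounds. Families numbered low (Cyp2, Cyp3) mostly oxidise drugs and other foreign compounds, Cyp4 enzymes mostly hydroxylate fatty acids and eicosanoids, and the higher families make or break down bile acids, steroid hormones, and vitamins A and D. Most sit in the endoplasmic reticulum and draw electrons from P450 oxidoreductase (Por), whereas the mitochondrial ones draw them from ferredoxin and its reductase. The liver is the organ best known for them, and hepatocytes hold many of these enzymes at high levels.

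Most of the 89 genes were at or near 0 in Hepa-1 cells. No read was counted in any library for 17 of them, 45 had counts but did not pass the filter on low counts, and 27 (30.3%) passed and were tested, against 58.2% of all genes in the table. Of the 62 genes not tested, 54 had at most 10 counts summed over the 4 libraries, and the highest had 41. Total counts per library were between 32319676 and 37696116. The treated libraries differed from each other more than the controls did, with a correlation of 0.977 within the treated pair and 0.999 within the control pair on log2 CPM (counts scaled to library size and TMM factors), and 874 against 4 genes more than 2-fold apart. Of 9 hepatocyte markers found in the table, 7 were tested and 4 were called higher in treated cells (Alb, Ttr, Apob and Fgb). Among all tested genes, 1.78% were called higher. Not called were Hnf4a (log2 fold change 0.97), Afp (0.034) and Serpina1a (0.0037). The summed level of the markers was 1059 to 1103 CPM in control and 3761 to 3836 CPM in treated libraries. Most of it was Alb, with 904 and 947 CPM in control and 3666 and 3547 CPM in treated libraries. Apoa1 was at 0 counts in both controls. Of 12 markers of other cell types, 7 were tested and 1 was called higher (Pecam1), beside the same 1.78%. Their summed level was 458 to 462 CPM in control and 547 to 695 CPM in treated libraries, and Cdh5 and Lrat had no counts. The part of these shifts in the P450 results was not tested, and fewer cells that express a gene cannot be told apart from less RNA per cell.

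Few genes of the large subfamilies that oxidise foreign compounds were tested. Of 15 Cyp2c genes 2 were tested, of 8 Cyp2d genes 1, of 7 Cyp3a genes 1, and none of the 5 Cyp2b or 4 Cyp2a genes. Of 7 Cyp2j genes, which act on arachidonic acid and other fatty acids, 1 was tested. The Cyp4f subfamily stood at the other end, with 7 of 9 genes tested. The 17 genes at 0 counts were Cyp2a4, Cyp2b9, Cyp2b13, Cyp2b23, Cyp2c38, Cyp2c70, Cyp2d11, Cyp2j5, Cyp2j8, Cyp2j12, Cyp2r1, Cyp3a25, Cyp4a14, Cyp4a29, Cyp4x1, Cyp8b1 and Cyp46a1. They include Cyp8b1, the sterol hydroxylase that makes cholic acid, and Cyp2r1, a vitamin D 25-hydroxylase. With 0 counts, 3 counts per library is the limit that counting error allows. The annotation used for counting is not given in the sources used here, so a 0 may also mean that reads of a gene were not assigned to it.

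**Figure D1:**
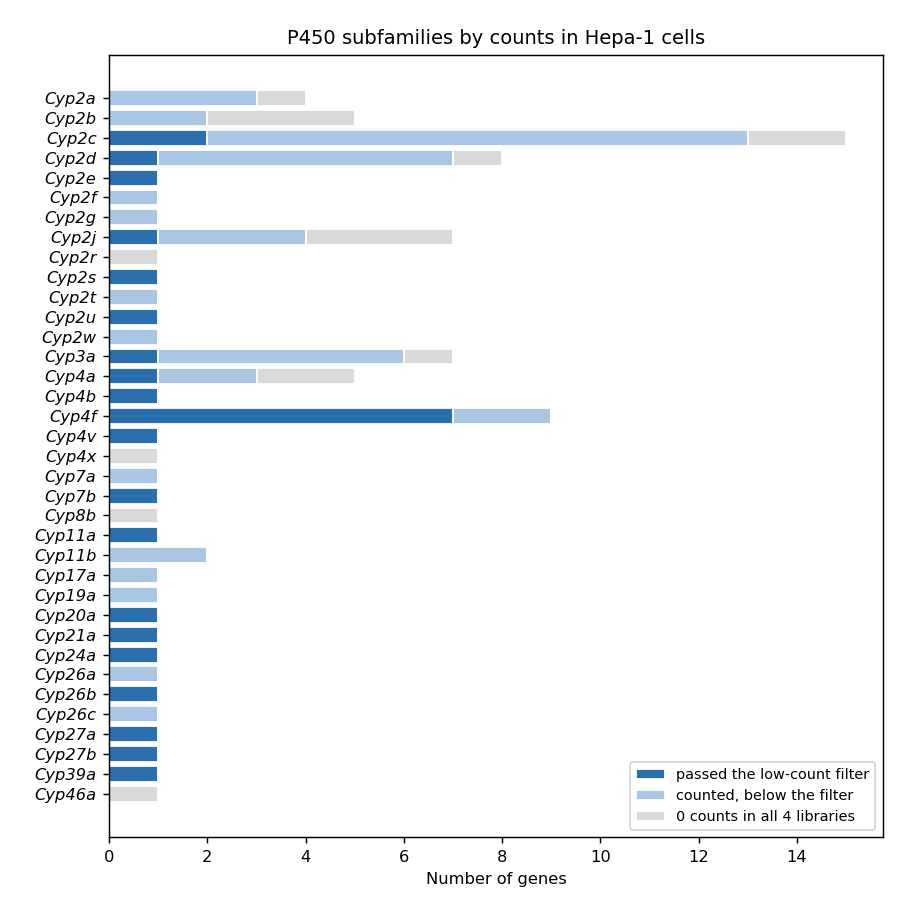
Number of P450 genes in each subfamily (horizontal axis, genes), split by colour into genes that passed the low-count filter, genes with counts below it and genes with 0 counts in all 4 libraries. Cyp4f had 7 tested genes of 9, and Cyp2a and Cyp2b had none.

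P450 genes lie in tandem clusters. With a gap of less than 500000 bp between neighbours, 9 clusters held 67 of the 89 genes, and 13 of those were tested. The 22 genes that lay alone had 14 tested. The Cyp2c cluster on chromosome 19 had 1 tested gene (Cyp2c55) of 14, the Cyp2a, Cyp2b, Cyp2f, Cyp2g, Cyp2s and Cyp2t cluster on chromosome 7 had 1 (Cyp2s1) of 13, and the Cyp3a cluster on chromosome 5 had none of 6. The Cyp4f cluster, chr17:32452697-32947415 in mm10, had 7 of 8.

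Even the highest P450 genes were moderate in level. Per kilobase of exon (RPKM from TMM-scaled CPM), the median of the 27 tested genes was 0.826, against 8.26 for the 13568 tested genes with a length, and 5 of the 27 lay above that all-gene median. The highest mean over the 4 libraries was Cyp21a1 (19.8 RPKM), the steroid 21-hydroxylase, which lay at percentile 70.5 of all tested genes. Next came Cyp4f16 (14.6), Cyp20a1 (12.2), Cyp2e1 (10.6), Cyp27a1 (9.59), Cyp4v3 (7.66), Cyp2s1 (7.65), Cyp4f13 (5.35), Cyp4f17 (4.95) and Cyp4f37 (3.48), all in RPKM. From Cyp21a1 to Cyp4f17 the ranges of neighbours in this order over the 4 libraries, both groups included, overlapped, and Cyp2e1 alone ranged from 6.81 to 15.6 RPKM between the treated libraries. The order also depended on the group: in controls Cyp21a1 (23.6 ± 0.325 RPKM, SD, n = 2) stood above Cyp4f16 (17.1 ± 0.0789) and Cyp20a1 (16.3 ± 0.477), and in treated cells Cyp20a1 (8.01 ± 0.556) fell below Cyp27a1 (11.2 ± 0.491). Summed over all 89 genes, the level was 101.9 ± 6.65 RPKM in treated and 112.2 ± 1.00 RPKM in control libraries. Reads of some genes could be shared with near-identical copies: 42.5% of the 50-base exon stretches of Cyp21a1 also occur in another gene, mainly the pseudogene Cyp21a2-ps, so its counts are uncertain. More than 10% of such stretches were shared in 6 tested genes (Cyp21a1, Cyp4f16, Cyp4f37, Cyp11a1, Cyp4a31 and Cyp4b1), and none in 11.

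**Figure D2:**
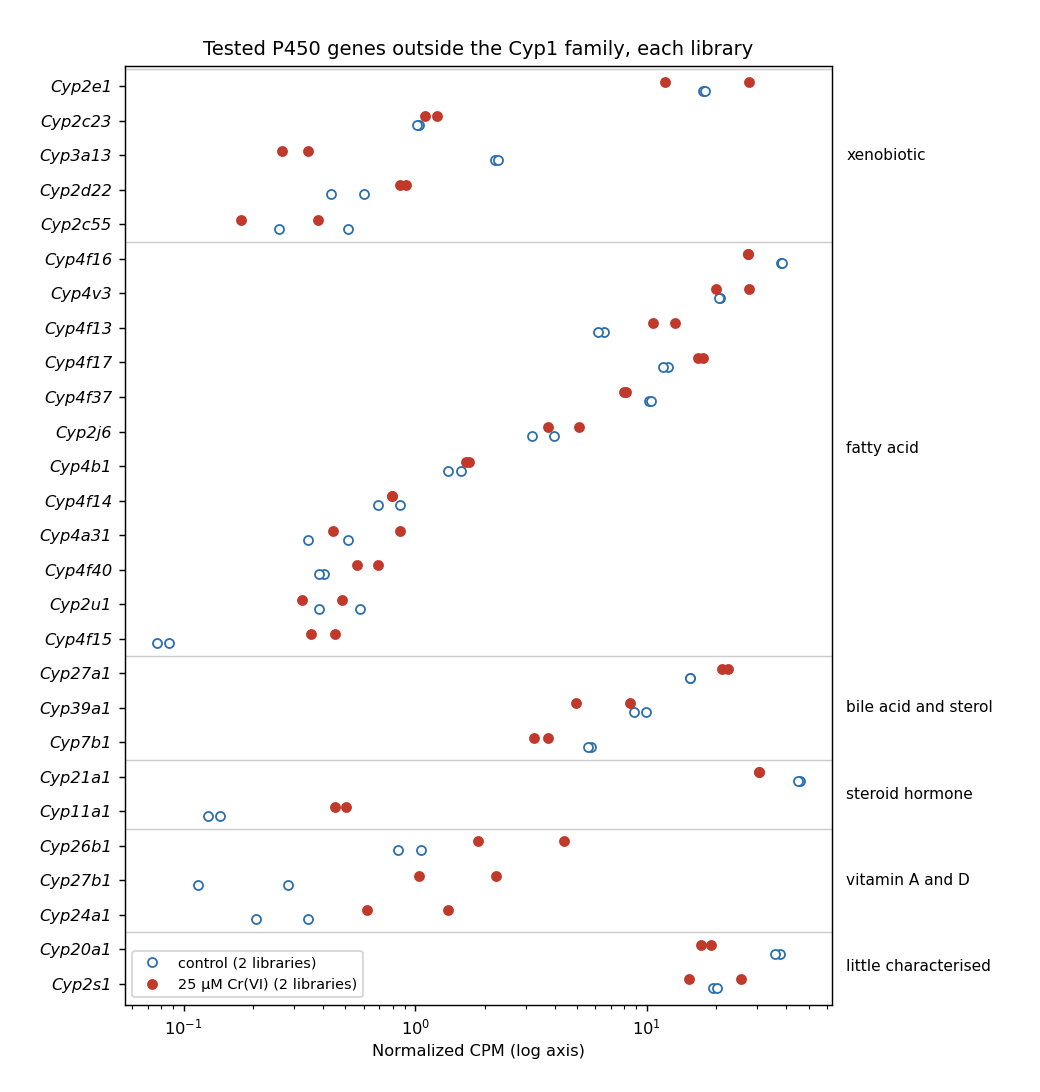
TMM-scaled CPM (log axis) of the 27 tested P450 genes in each of the 2 treated (filled) and 2 control (open) libraries, grouped by role. Cyp3a13 and Cyp20a1 were lower in both treated libraries, and the treated points of Cyp2e1 and Cyp2s1 lie on either side of the controls.

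After 25 µM Cr(VI), 2 of the 27 tested P450 genes changed by edgeR's adjusted p-value, Cyp3a13 and Cyp20a1, and both were lower in treated cells. The background was 4.63% of all 13619 tested genes called, 1.78% as higher and 2.85% as lower, so a count of 2 in 27 is close to the background. None of the 27 was called higher. Without overlap between the groups were 19 of the 27 (70.4%), 12 above and 7 below the controls, against 66.3% of all tested genes, 32.2% above and 34.1% below. An unadjusted p below 0.05 was found for 13 (8 higher, 5 lower), which is 48.1%, against 30.7% of all tested genes. The median log2 fold change of the 27 was 0.19, against −0.0047 over all tested genes, and 18 of the 27 were above 0 (66.7% against 49.6%). These counts describe the genes that passed the filter. Cyp4f15, Cyp11a1, Cyp27b1 and Cyp24a1 reached it in both treated but not in both control libraries and would not have been tested at their control level, and Cyp3a13 reached it in both control but not in both treated libraries.

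**Figure D3:**
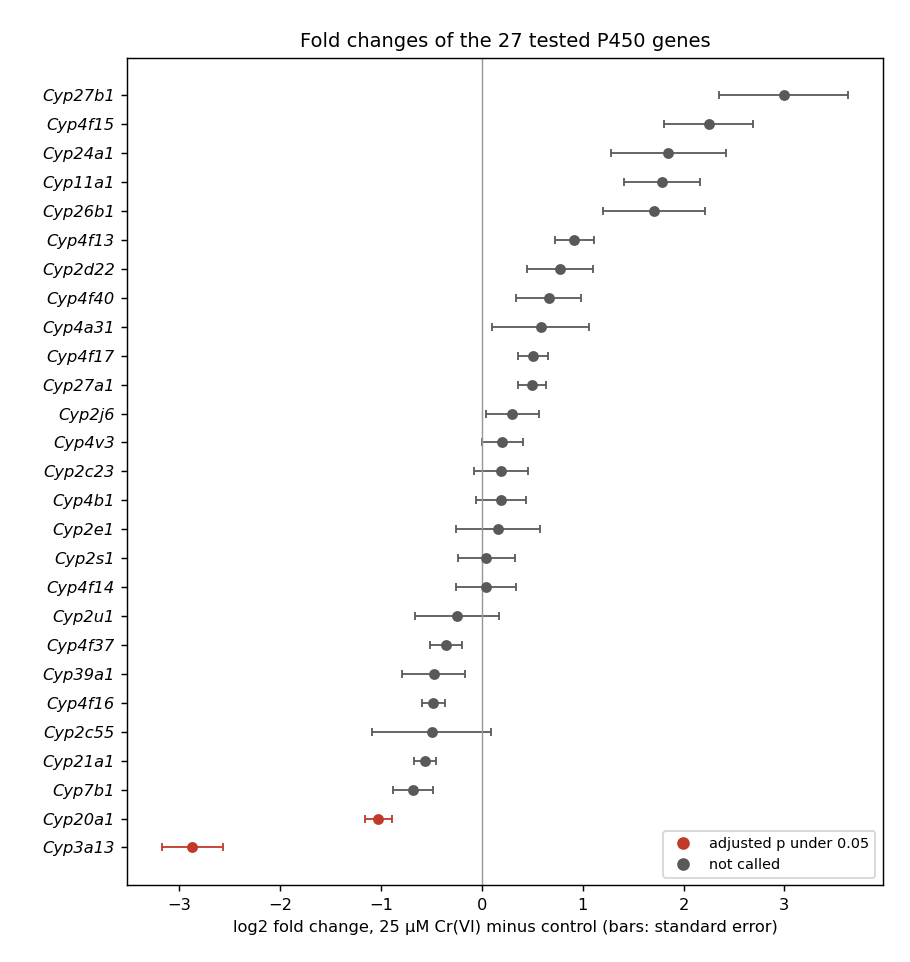
Log2 fold change (horizontal axis, treated minus control) of the 27 tested P450 genes, with bars for the standard error and red for an adjusted p-value under 0.05 in edgeR. Only Cyp3a13 at −2.87 and Cyp20a1 at −1.03 are red, and Cyp27b1, with the largest positive value at 2.996, has the widest bar (SE 0.64).

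Cyp3a13, a member of the family that oxidises drugs and steroids, was the tested P450 gene with the largest fold change downwards. It had 9 and 10 counts in the treated libraries and 77 and 89 in the controls, or 0.266 and 0.345 CPM against 2.21 and 2.28 CPM. Both treated libraries were far below both controls. Cyp3a13 passed the filter on low counts through its control libraries, which partly fixes its direction. Its mean was 0.305 ± 0.0560 CPM (SD, n = 2) in treated and 2.24 ± 0.0435 CPM in control cells, 13.6% of control, with a log2 fold change of −2.87 (SE 0.30) and an edgeR adjusted p of 0.0317. With either control library left out the adjusted p rose to 0.0693 and 0.0809. Cyp3a13 lies on the minus strand of chromosome 5 (chr5:137892933-137925610, mm10), apart from the other 6 Cyp3a genes, none of which passed the filter.

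The promoter window of Cyp3a13 (RefSeq, GRCm38.p6, minus strand, 250 bases before to 50 after a start inside the annotated gene) is shown because it was the window of a called gene in which a searched motif was found. Capitals mark TGANTCA, the AP-1 sequence, which begins at −91 and at −6 from that start.
Cyp3a13, chr5:137921570-137921869: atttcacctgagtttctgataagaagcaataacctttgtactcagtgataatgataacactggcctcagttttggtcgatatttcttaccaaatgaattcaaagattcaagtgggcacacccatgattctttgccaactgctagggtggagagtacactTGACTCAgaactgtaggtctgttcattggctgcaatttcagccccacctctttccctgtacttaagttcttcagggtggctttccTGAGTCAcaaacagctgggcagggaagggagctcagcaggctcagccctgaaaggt

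Cyp20a1, a P450 whose substrates are little known, showed the other called difference. It had 639 and 496 counts in treated and 1302 and 1405 in control libraries, or 18.9 and 17.1 CPM against 37.4 and 35.9 CPM. The groups did not overlap, and the libraries within each were close. Its mean was 18.0 ± 1.25 CPM (SD, n = 2) in treated and 36.7 ± 1.07 CPM in control cells, 49.1% of control, with a log2 fold change of −1.03 (SE 0.13) and an edgeR adjusted p of 0.0390. The adjusted p was 0.0574 when counts were scaled by library size alone, and 0.257 and 0.210 with either control library left out. Cyp20a1 lies alone on the plus strand (chr1:60343300-60388060, mm10), and its promoter window held none of the motifs searched.

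Among the 42 genes of drug and xenobiotic metabolism, 8 had 0 counts, 29 lay below the filter, and 5 were tested. Of the 5, 1 was called lower and none higher, where 2.85% and 1.78% of all tested genes were. The 1 was Cyp3a13, which passed the filter through its control libraries. Cyp2e1, which oxidises ethanol and small solvents, stood at 12.0 and 27.5 CPM in treated and 17.5 and 17.8 CPM in control libraries, so that the treated libraries lay on opposite sides of the controls (log2 fold change 0.16, SE 0.42). Its fold change was −0.56 without the second treated library. Of the genes below the filter in any group, Cyp2t4, whose function is little characterised, had 5 and 29 treated against 3 and 4 control counts. Cyp2d26 had 4 and 24 against 0 and 0 counts, a treated mean 5.81-fold above a control floor of 3 counts per library (0.0815 CPM). Cyp2d40 had 3 and 10 against 0 and 0 counts, a treated mean 2.66-fold above the same floor. The first treated library alone was near that floor, at 0.118 CPM for Cyp2d26 and 0.0886 CPM for Cyp2d40. In all 3 genes the second treated library held most of the counts. Cyp2j13 (4 and 7 against 5 and 4 counts) and Cyp4f18 (2 and 10 against 2 and 5 counts), from the fatty acid group, did not separate the groups.

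The 24 fatty acid and eicosanoid genes held 12 tested genes, none called, where 4.63% of all tested genes were. Of the 12, 5 lay above, 2 below and 5 across the controls, where 32.2% of all tested genes lay above and 34.1% below. In the Cyp4f cluster, neighbours differed in sign. Cyp4f13 stood at 13.3 and 10.7 CPM in treated against 6.53 and 6.16 CPM in control libraries (log2 fold change 0.92, SE 0.20, edgeR adjusted p 0.0729). Cyp4f15 had 12 and 13 against 3 and 3 counts (2.25, SE 0.44, edgeR adjusted p 0.0646), and Cyp4f17 had a log2 fold change of 0.50 (SE 0.15, edgeR adjusted p 0.114). In all 3 both treated libraries were above both controls, and Cyp4f15 passed the filter through its treated libraries, which partly fixes its direction. Cyp4f16, at 27.3 and 27.4 CPM in treated against 38.1 and 38.4 CPM in control libraries, and Cyp4f37 lay below the controls, with log2 fold changes of −0.48 (SE 0.11, edgeR adjusted p 0.0853) and −0.35. The difference between these neighbours was not tested. Summed over the cluster, the level was 28.8 RPKM in treated and 29.3 RPKM in control cells. Cyp4f16 shared 21.4% of its exon stretches with another gene, mainly Cyp4f37, so reads of these neighbours may not be separable. Cyp4v3, a fatty acid hydroxylase of the eye and other tissues, had a log2 fold change of 0.20 and overlapping groups.

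The pair that shares exon sequence also shares promoter sequence, and the stretches around the AP-1 motif (capitals), chosen after their values were seen, are shown for that reason. They lie in mm10 at chr17:32536378-32536406 for Cyp4f16 and chr17:32621075-32621103 for Cyp4f37, both on the plus strand, with the motif at −168 and −233 from the start used.
Cyp4f16: acctttgccctTGACTCAgaggtgctgca
Cyp4f37: acctttgccctTGACTCAgaggtgctgca

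The 3 tested genes of vitamin A and D metabolism all lay above the controls in both treated libraries. Among all tested genes 32.2% did. None of the 3 was called, where 4.63% of all tested genes were. Cyp27b1 and Cyp24a1 passed the filter through their treated libraries, which partly fixes their direction. Cyp27b1, the 1-alpha-hydroxylase that activates vitamin D, had 35 and 65 counts in treated and 4 and 11 in control libraries (log2 fold change 2.996, SE 0.64, edgeR adjusted p 0.0731). Cyp24a1, the hydroxylase that inactivates vitamin D, had 21 and 40 against 12 and 8 counts (1.85, SE 0.57, edgeR adjusted p 0.125). Cyp26b1, a retinoic acid hydroxylase named here after its values were seen, had 63 and 127 against 37 and 33 counts (1.70, SE 0.50, edgeR adjusted p 0.118). The second treated library was the higher for each of the 3. The log2 fold change of Cyp27b1 was 2.33 without that library and 3.76 without the second control, and that of Cyp24a1 was 1.18 without the second treated library. With DESeq2, Cyp27b1 (adjusted p 0.00532) and Cyp26b1 (0.0328) passed the threshold. The summed level of the 6 genes of the group was 1.77 RPKM in treated and 0.394 RPKM in control cells. Cyp26a1, another retinoic acid hydroxylase, was below the filter with 7 and 6 against 2 and 1 counts.

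Among the 6 steroid hormone genes, 2 were tested and they had opposite signs. Cyp21a1 stood at 30.6 and 30.6 CPM in treated and 45.8 and 45.0 CPM in control libraries, with a log2 fold change of −0.57 (SE 0.11, edgeR adjusted p 0.0646). Cyp11a1, which cleaves the side chain of cholesterol to begin steroid synthesis, had 17 and 13 against 5 and 5 counts, with 1.79 (SE 0.38, edgeR adjusted p 0.0728). Neither gene was called, where 4.63% of all tested genes were. Neither pair of groups overlapped, where 66.3% of all tested genes did not overlap. Cyp11a1 passed the filter through its treated libraries, which partly fixes its direction. Cyp11a1 overlaps the annotated gene Gm17322 on the same strand and shares 20.8% of its exon stretches with it, and Cyp21a1 overlaps Tnxa on the opposite strand. Whether the counting used strand is not given in the sources used here, so reads of these overlapping genes cannot be told apart.

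Of 6 genes of bile acid and sterol metabolism, 3 were tested and none was called, where 4.63% of all tested genes were. Among all tested genes, 32.2% lay above and 34.1% below the controls. Cyp27a1, the mitochondrial sterol 27-hydroxylase, lay above the controls in both treated libraries (log2 fold change 0.50, SE 0.14, edgeR adjusted p 0.105). Cyp39a1, an oxysterol hydroxylase, lay below them with −0.48, which was −0.91 without the first and −0.14 without the second treated library. Cyp7b1, the oxysterol 7-alpha-hydroxylase named here after its values were seen, also lay below them (−0.69, SE 0.20, edgeR adjusted p 0.116). In the group whose function is little characterised, 2 of 5 genes were tested: Cyp20a1, and Cyp2s1 at 15.2 and 25.6 CPM in treated against 19.4 and 20.1 CPM in control libraries. As with Cyp2e1, the treated libraries of Cyp2s1 lay on either side of the controls.

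DESeq2 gave an adjusted p to 29 of the 89 genes and called 6 of them (20.7%), against a background of 14.2% of the 14170 genes to which it gave one. Cyp3a13 (adjusted p 0.000397) and Cyp20a1 (0.000296) were lower. Cyp27b1, Cyp26b1, Cyp4f13 (0.0233) and Cyp2d26 (0.0203) were higher. The low-count genes Cyp4f15 (adjusted p 0.274) and Cyp11a1 (0.340) were further from the threshold with DESeq2 than with edgeR. Cyp21a1 (0.0593) was slightly nearer and was not called. Cyp2d26 was the gene below the edgeR filter whose counts came mostly from a single treated library.

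P450 enzymes depend on electron donors and heme, and of these genes Por was called. Por stood at 277 and 381 CPM in treated and 131 and 136 CPM in control libraries. Both treated libraries were above both controls, and they differed from each other. Its mean was 329 ± 73.8 CPM (SD, n = 2) in treated and 134 ± 3.55 CPM in control cells, 246% of control, with a log2 fold change of 1.30 (SE 0.19) and an edgeR adjusted p of 0.0448. With either control library left out the adjusted p was 0.160 and 0.134. Of the other 8 electron transfer genes, none was called, where 4.63% of all tested genes were. With Por included, 5 of 9 lay above and 2 below the controls, against 32.2% and 34.1% of all tested genes. Cyb5b (−0.56) and ferredoxin Fdx1 (−0.50) had the lowest log2 fold changes, and Fdxr (0.67) and Pgrmc1 (0.55) the highest after Por.

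None of 12 tested genes of heme synthesis and breakdown was called: 4 lay above, 2 below and 6 across the controls, beside the 4.63% called and 66.3% not overlapping among all tested genes. Hmox1, the stress-induced heme oxygenase, stood at 49.9 and 315.7 CPM in treated and 52.1 and 55.2 CPM in control libraries. Only the second treated library was high, and the groups overlapped (log2 fold change 1.77, SE 0.87, edgeR adjusted p 0.245). Of 18 transcription factors known to regulate P450 genes, 12 were tested and none was called, against the same 4.63%. Nr1h4, the bile acid receptor, had a log2 fold change of −1.02 (SE 0.24, edgeR adjusted p 0.0852), at 4.73 and 3.38 CPM in treated and 7.94 and 8.59 CPM in control libraries. Hnf4a, which is also on the hepatocyte marker list, was low in all libraries, at 0.443 and 0.518 CPM in treated and 0.230 and 0.256 CPM in controls, and Cebpa had 0 counts in all 4, with the same doubt about the annotation as above.

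**Figure D4:**
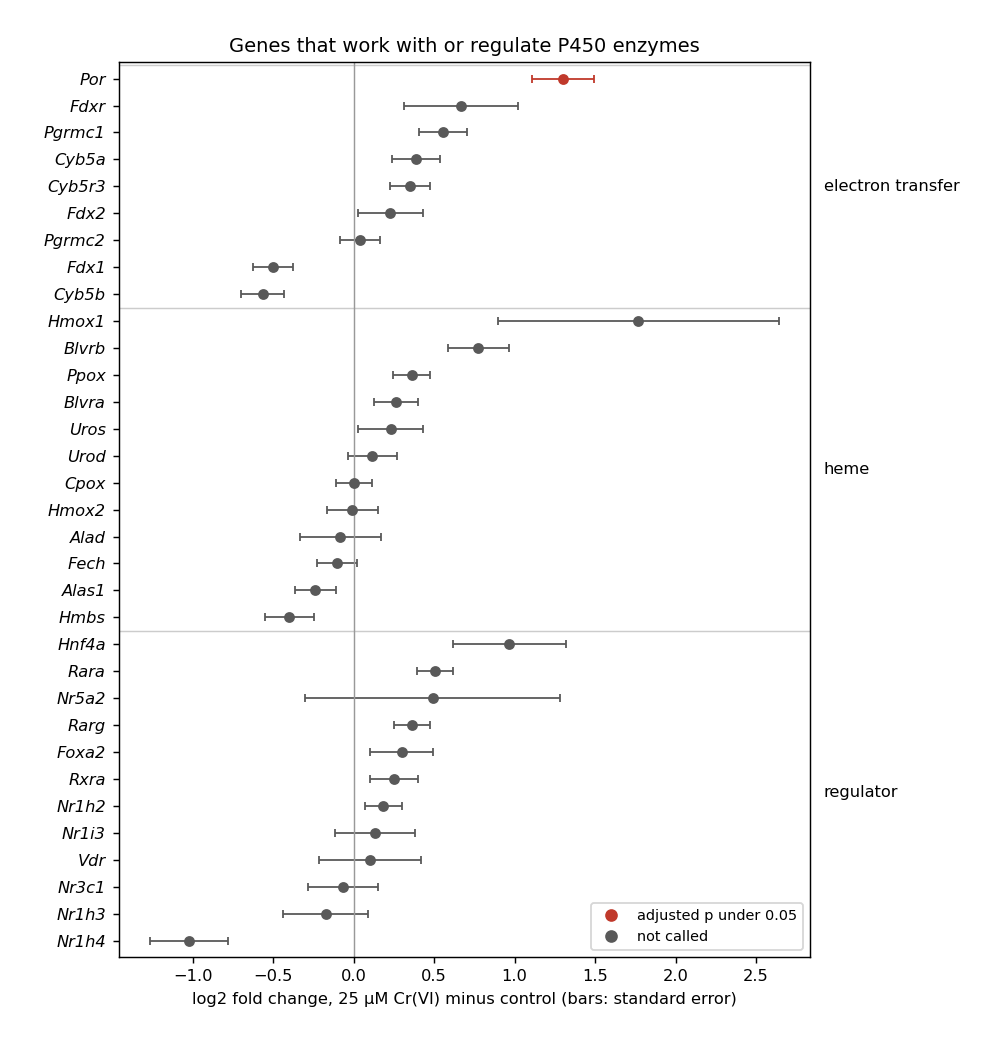
Log2 fold change (horizontal axis, treated minus control, bars for the standard error) of the 33 tested genes of electron transfer, heme metabolism and P450 regulation. Por at 1.30 is the only gene in red, an adjusted p-value under 0.05, and the bar of Hmox1 is the widest of the heme group.

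FAIRE peaks were set against the P450 genes by position. The lists hold peaks of each Cr(VI) library called against its control, so regions that lost FAIRE signal after Cr(VI) cannot appear in them. A peak was counted when its centre lay in the gene body or within 10 kb before the start. At 25 µM Cr(VI), 8 of the 89 genes (8.99%) had such a peak, against 7.58% of 23281 genes with a position, and in cells passaged in 0.5 µM Cr(VI) 1 gene (1.12%) had one, against 2.42%. Both shares are near the background. Neither Cyp3a13 nor Cyp20a1 was among them. Beyond the 10 kb limit, a peak of the 25 µM list (score 66.6) lay at −17740 bp from the annotated start of Cyp3a13. The 7 counted peaks of the 25 µM list lay in introns of Cyp2a4, Cyp2c55, Cyp2r1, Cyp39a1 and Cyp4f17, at −321 bp from the start of Cyp2s1, and at −8454 bp from that of Cyp2w1. The peak in the Cyp4f17 intron (chr17:32526540-32526669) is also at −9940 bp from the start of Cyp4f16. The peak of the 0.5 µM list (chr17:32656984-32657597, 614 bp, score 76.8) lay at −1596 bp from the start of Cyp4f40. Scores are the authors' MACS values. The lists start at 50.0, the value that the default MACS cutoff takes when a score is 10 times −log10 p, so they are read on that scale. At P450 genes they ranged from 51.3 (Cyp2c55) to 93.5 (Cyp39a1). Of the genes with a counted peak, Cyp2a4 and Cyp2r1 had no RNA counts, and Cyp2w1, with 1 count in all, was not tested. None of the others was called, where 4.63% of all tested genes were. With 1 library for each condition, no peak has a replicate check, and since the lists hold scores alone, how many reads lie under each peak is not known.

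The peak near Cyp2s1, a P450 of epithelial tissues, is shown because it was the peak closest to a P450 start. It is 269 bp wide, with a score of 65.8, on chromosome 7 in mm10, and is written on the minus strand, that of the gene. Capitals mark the 64 bases that fall inside the RefSeq promoter window.
Cyp2s1, chr7:25816712-25816980: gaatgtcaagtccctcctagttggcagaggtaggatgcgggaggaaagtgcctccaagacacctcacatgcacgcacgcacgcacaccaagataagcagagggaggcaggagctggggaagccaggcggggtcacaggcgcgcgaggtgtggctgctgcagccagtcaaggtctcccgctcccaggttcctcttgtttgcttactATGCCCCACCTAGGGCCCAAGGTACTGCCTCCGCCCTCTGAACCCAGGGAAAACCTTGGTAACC

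Promoter windows of 300 bases were found in RefSeq for 69 of the 89 genes and were searched on both strands for 4 motifs, none of which contains another. TATAAA, the sequence of the TATA box, was in 29 of 69 (42.0%), against 15.7% of 27025 genes with a window. A match at any place in the window counted, from −234 (Cyp3a11) to 40 (Cyp2c40) from the start used. The counts are therefore not counts of TATA boxes. AGGTCA, a nuclear receptor half-site, was in 21 (30.4% against 18.1%). TGANTCA was in 6 (8.70% against 8.97%): Cyp2c70, Cyp3a13, Cyp4a29, Cyp4b1, Cyp4f16 and Cyp4f37. TNGCGTG, the core bound by the aryl hydrocarbon receptor, was in 1, Cyp2c68 (1.45% against 5.84%). Several of these windows come from recent duplicates and are nearly alike, so the genes are not independent, and a match is a description of sequence only.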

How the data were processed

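The authors deposited raw read counts per Entrez gene for 4 poly-A RNA-seq libraries, aligned to mm10 with TopHat, and FAIRE peak lists called with MACS after BWA alignment, whose deposited score is read here as 10 times −log10 p. The counting tool, annotation and strand setting are not given in the sources used here. Symbols came from RefSeq (23305 of 23403 IDs matched). The main test was the quasi-likelihood test of edgeR (TMM, filterByExpr, two-sided, Benjamini-Hochberg adjustment over 13619 genes, threshold 0.05, no block). RPKM used summed exon length. Each SE was back-computed from the edgeR test, as the absolute log2 fold change over the square root of the test statistic F. The fit was tested on simulated counts with the same spread in both groups, whereas the treated pair here differed more than the control pair. Alternatives were a replicate block, other scalings and filters, DESeq2, each library left out, and other peak rules. The authors used DESeq.

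Named were called genes, the 10 highest by RPKM, those with a peak, 6 below the filter with most counts, and the 4 largest uncalled fold changes. Others are remarked on. The members, gene lists and motifs were chosen with earlier results of these data known. Versions were R 4.3.3, edgeR 4.0.16, DESeq2 1.42.0, Python 3.11.15 and pandas 2.3.3.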

Additional observations from a re-analysis of the deposited data

How the results depend on the processing

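The count of P450 genes that differed was 2 by edgeR. It was 6 with DESeq2 (4 higher), 1 with library size alone (1 lower), 8 with the replicate block (6 higher, 29.6% of tested P450 genes, where 21.8% of all genes were called), and 0 to 21 with each library left out in turn (0 to 14 higher, 0 to 8 lower). It was 0 without either control library. Without a treated library, the remaining one is assumed to vary like the controls, and 77.6% and 67.2% of all tested genes were called. Library size alone moved the median log2 fold change of all genes to −0.11. It called 3.7% of tested P450 genes, where 3.35% of all tested genes were called. DESeq2 called 20.7% of the P450 genes with an adjusted p, against 14.2% of all such genes. The calling rate over all genes thus moved with the setting, from 4.63% in the main fit. Partner and regulator genes tested there were 9 of electron transfer, 12 of heme and 12 regulators. Partner and regulator genes called numbered 4 with DESeq2, 5 with the block and 1 to 28 with libraries left out. The replicate numbers were not taken as pairs: same-numbered libraries had a correlation of 0.118 in their deviations, over 2 pairs. With libraries left out, log2 fold changes crossed 0 for Cyp2c55 (−1.13 without treated 2 to 0.070 without control 2), Cyp2e1 (−0.56 without treated 2 to 0.65 without treated 1), Cyp4v3 (−0.041 without treated 1 to 0.42 without treated 2) and Cyp2s1 (−0.38 without treated 2 and −0.00085 without control 1 to 0.38 without treated 1). With library size alone, Cyp2s1 was at −0.090. The cause was not tested. Over the named genes and all settings, 141 fold changes kept direction and side of the threshold, 31 passed it where the reported one did not (most of them without a treated library), 7 no longer passed it and 6 changed sign. Genes with a peak numbered 15 (25 µM) and 4 (0.5 µM) within 50 kb, which is 16.9% and 4.49% against 20.9% and 6.31% of all genes, and 0 and 0 with a score of at least 100, against 0.0902% and 0.073%. Low counts limit most of these genes.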
